A study of Mus musculus with 6 samples.

Results

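Imprinted genes that lie away from the Ube3a locus were examined in the hippocampus of mice with and without a maternal copy of Ube3a. The 39 genes were chosen by name, as known mouse imprinted genes and their close neighbours outside the Ube3a cluster, out of 25239 gene symbols in the count tables, with no threshold on a measured value. All 39 were found, with Nespas listed under its RefSeq name Gnasas1. RNA was sequenced from the hippocampus of 3 wild type (WT, Ube3am+/p+) and 3 Ube3am-/p+ male mice, with 1 library per mouse. The mice were untreated as far as the labels say, of C57BL/6 background and 6 to 8 weeks old. Ube3am-/p+ mice, a model of Angelman syndrome, carry a nonfunctional Ube3a on the chromosome from the mother and a normal copy on the chromosome from the father. How the mutant allele was made, and whether the mice were littermates, is not given in the sources used here.

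Imprinted genes are transcribed mainly from the copy inherited from one parent, because DNA methylation laid down in the egg or the sperm marks the copies differently. They sit in domains in which a methylated control region sets the expression of several genes, often with a long noncoding RNA from one copy and protein-coding genes from the other. Ube3a itself is imprinted in neurons, where the maternal copy is the active one. Many of the genes described here act in growth, in the placenta and in the brain. The reads were counted per gene without regard to the parental copy, so the values are totals over both copies and hold no information on imprinting as such. In whole tissue, fewer cells of a type and less RNA per cell cannot be told apart.

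The promoter windows of 5 of the genes are shown because their transcripts carry the results below. Each window spans the start of a RefSeq transcript (GRCm38.p6), most of it upstream, and is written 5′ to 3′ on the gene's strand, with CpG dinucleotides in capitals, since CpGs are the sites of the methylation that marks imprinted copies. Meg3 and Rian are transcribed in the same direction on chromosome 12, and the Meg3 window shown held 13 CpGs and the Rian window 0. A further Meg3 window, at a start inside the gene and not shown, held 1.
Meg3 window, chr12:109540746-109541045, plus strand: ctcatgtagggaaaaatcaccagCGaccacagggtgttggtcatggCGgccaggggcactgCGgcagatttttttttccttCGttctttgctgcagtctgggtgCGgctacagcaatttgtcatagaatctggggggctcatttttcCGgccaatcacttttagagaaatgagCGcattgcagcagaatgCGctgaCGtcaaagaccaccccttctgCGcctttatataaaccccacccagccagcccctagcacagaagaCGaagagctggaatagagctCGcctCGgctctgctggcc
Rian window, chr12:109603695-109603994, plus strand: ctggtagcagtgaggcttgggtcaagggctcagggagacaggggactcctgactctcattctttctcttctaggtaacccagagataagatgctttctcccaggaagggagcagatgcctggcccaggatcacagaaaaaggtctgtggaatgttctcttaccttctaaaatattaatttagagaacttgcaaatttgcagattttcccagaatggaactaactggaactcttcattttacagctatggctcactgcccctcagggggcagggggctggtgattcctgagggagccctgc
Peg3 window, chr7:6730370-6730669, minus strand, which also covers the start of Usp29 on the other strand: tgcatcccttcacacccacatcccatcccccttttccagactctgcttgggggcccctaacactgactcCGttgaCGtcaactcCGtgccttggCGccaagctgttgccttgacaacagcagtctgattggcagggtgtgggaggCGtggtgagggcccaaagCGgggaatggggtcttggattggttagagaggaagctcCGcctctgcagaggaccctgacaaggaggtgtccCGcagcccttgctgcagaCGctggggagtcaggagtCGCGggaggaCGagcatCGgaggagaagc
Kcnq1ot1 window, chr7:143296498-143296797, minus strand: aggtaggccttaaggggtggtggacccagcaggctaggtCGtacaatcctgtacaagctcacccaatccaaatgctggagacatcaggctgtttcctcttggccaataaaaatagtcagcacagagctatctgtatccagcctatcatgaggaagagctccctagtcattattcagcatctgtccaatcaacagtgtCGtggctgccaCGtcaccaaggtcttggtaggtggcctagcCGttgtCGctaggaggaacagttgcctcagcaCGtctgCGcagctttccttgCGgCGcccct
Nnat window, chr2:157559828-157560127, plus strand: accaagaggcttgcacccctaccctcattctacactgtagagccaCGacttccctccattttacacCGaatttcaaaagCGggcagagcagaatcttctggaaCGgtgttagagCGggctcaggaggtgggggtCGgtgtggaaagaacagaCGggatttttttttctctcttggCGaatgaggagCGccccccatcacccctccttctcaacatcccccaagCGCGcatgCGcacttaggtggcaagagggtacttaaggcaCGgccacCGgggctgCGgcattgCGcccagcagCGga
The Peg3 window held 13 CpGs, the Kcnq1ot1 window 9 and the Nnat window 17. Windows were found for 29 of the 39 genes, 42 in all, with a median of 16.5 CpGs against 7 over all 32851 windows of the same length. TGCCGC, the hexamer bound by ZFP57 when methylated, was searched on both strands and stood in 12 of the 42 windows (28.6%) and in 11.6% of all windows. Some of the 42 windows overlap almost fully, such as those at neighbouring starts of Mest and of Gnas, so they are not independent. The hexamer also holds a CpG, and CpGs were more frequent in these windows. These are descriptions of sequence, and a match is not a bound site.

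The transcript Mirg and the gene Rtl1 overlap precursors of microRNAs, and the mature sequences of 5 of these are shown with the seed, bases 2 to 8, in capitals. The span of Mirg held 14 precursors with 26 mature microRNAs and 25 seeds, and miR-453 and miR-496a-5p share a seed. The span of Rtl1 held 7 precursors, among them those of miR-127 and miR-433 on the strand opposite to Rtl1. The libraries measured the long transcripts, not the mature microRNAs.
mmu-miR-453 (Mirg): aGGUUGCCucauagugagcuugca
mmu-miR-496a-5p (Mirg): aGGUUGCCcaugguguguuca
mmu-miR-134-5p (Mirg): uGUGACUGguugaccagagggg
mmu-miR-127-3p (opposite Rtl1): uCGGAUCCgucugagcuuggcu
mmu-miR-433-3p (opposite Rtl1): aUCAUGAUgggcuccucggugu

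The reads counted on genes numbered 7293272 to 8675252 in WT mice and 8871052 to 11314409 in Ube3am-/p+ mice. The targeted gene had 104, 141 and 151 CPM (counts scaled to a fixed total of gene counts per library) in WT mice 1, 2 and 3 and 96.8, 82.9 and 80.6 CPM in Ube3am-/p+ mice 1, 2 and 3, that is, -0.58 ± 0.12 (SE) as a log2 fold change in the edgeR quasi-likelihood test, with a Benjamini-Hochberg adjusted p = 0.0363. The estimate was -0.20 (adjusted p = 0.240, edgeR) once GC content and transcript length were corrected for. Whether the counted reads of Ube3a can come from the mutant copy is not given. Marker genes of dentate and CA neurons were detected, 7 of 7, with sums of 658 to 723 CPM in WT and 584 to 621 CPM in Ube3am-/p+ mice. Libraries differed in the relation of expression to GC content. Across genes, GC content and a library's deviation from the average library were related with a Spearman's rho of 0.05 in WT mouse 1 and 0.06 in Ube3am-/p+ mouse 1, -0.51 and -0.57 in WT mice 2 and 3, and 0.53 in both Ube3am-/p+ mice 2 and 3. The mice numbered 1 thus lay between the other mice of both genotypes. Results are therefore also given after such a correction of each library. Choroid plexus carry-over was uneven, with marker sums of 101 to 2180 CPM in WT and 108 to 2270 CPM in Ube3am-/p+ mice (7 of 7 markers detected).

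Of the 39 imprinted genes, 31 passed the filter on low counts and were tested. None of the 31 was differentially expressed between the genotypes by the rule used throughout, a fold change above 1.2 with an adjusted p below 0.05 (edgeR), whereas 2.01% of all 14445 tested genes were. The smallest adjusted p was 0.0539, for Peg10. The unadjusted p was below 0.05 in 9 genes (29%), against 24.6% of all tested genes. Of the 9, Peg10, Kcnq1ot1, Rian, Grb10 and Copg2 had lower means in Ube3am-/p+ mice (12.4% of all genes did so at this p), and Nnat, Mirg, Zrsr1 and Trappc9 had higher means (12.2% of all genes). With DESeq2, 3 of the 37 genes with reads were called, Peg10 and Rian with lower and Nnat with higher expression, where 4.84% of all genes were called. In edgeR, 3 were called with no filter on low counts (Kcnq1ot1 and Peg10 lower, Nnat higher), where 6.1% of all genes were, and Peg10 alone with DESeq2 size factors, where 2.76% were. In 4 genes (12.9%) the 3 mice of one genotype all lay above those of the other, against 25% of all tested genes, with Rian, Peg10 and Kcnq1ot1 lower (14.2% of all genes) and Trappc9 higher (10.8% of all genes) in Ube3am-/p+ mice. The log2 fold changes of the 31 genes had a median of -0.05, against 0.0025 for all tested genes. The estimate was above 0 in 10 of the 31, against 50.3% of all tested genes. The median size of the estimates, regardless of sign, was 0.12 for the imprinted genes and 0.18 for all genes. Of the genes expressed mainly from the maternal copy, 9 were tested and 4 had the lower mean, with a median of 0.04. Of those expressed mainly from the paternal copy, 16 were tested and 13 had the lower mean, with a median of -0.07. After the correction for GC content and length these medians were 0.11 for the maternal and -0.0042 for the paternal class. The difference between these classes was not tested. Marker sums of 4 other sets of cells did not overlap between the genotypes. They were lower in Ube3am-/p+ mice for oligodendrocytes (7534 to 7653 CPM in WT, 6229 to 7146 CPM in Ube3am-/p+ mice, 5 of 5 markers detected), for microglia (253 to 260 and 238 to 242 CPM, 5 of 5 detected) and for dentate and CA neurons (values above). The sum for thalamus and hypothalamus was higher (53.6 to 68.2 and 69.6 to 77.3 CPM, 11 of 11 detected), with Prkcd and Calb2 above and Tcf7l2 and Lef1 below the WT mean among its 4 tested markers. In these 4 lists 0 markers were called (edgeR), and 3, 2, 2 and 1 had an unadjusted p below 0.05. Markers within a list did not all go the same way. Estimates were above 0 for 2 of 5 oligodendrocyte, 2 of 5 microglia and 1 of 7 dentate and CA markers. The 2 microglia markers at this p went opposite ways, P2ry12 by -0.49 and C1qa by 0.47 on the log2 scale. The part of these cell types in the values of the imprinted genes was not tested.

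**Figure D1:**
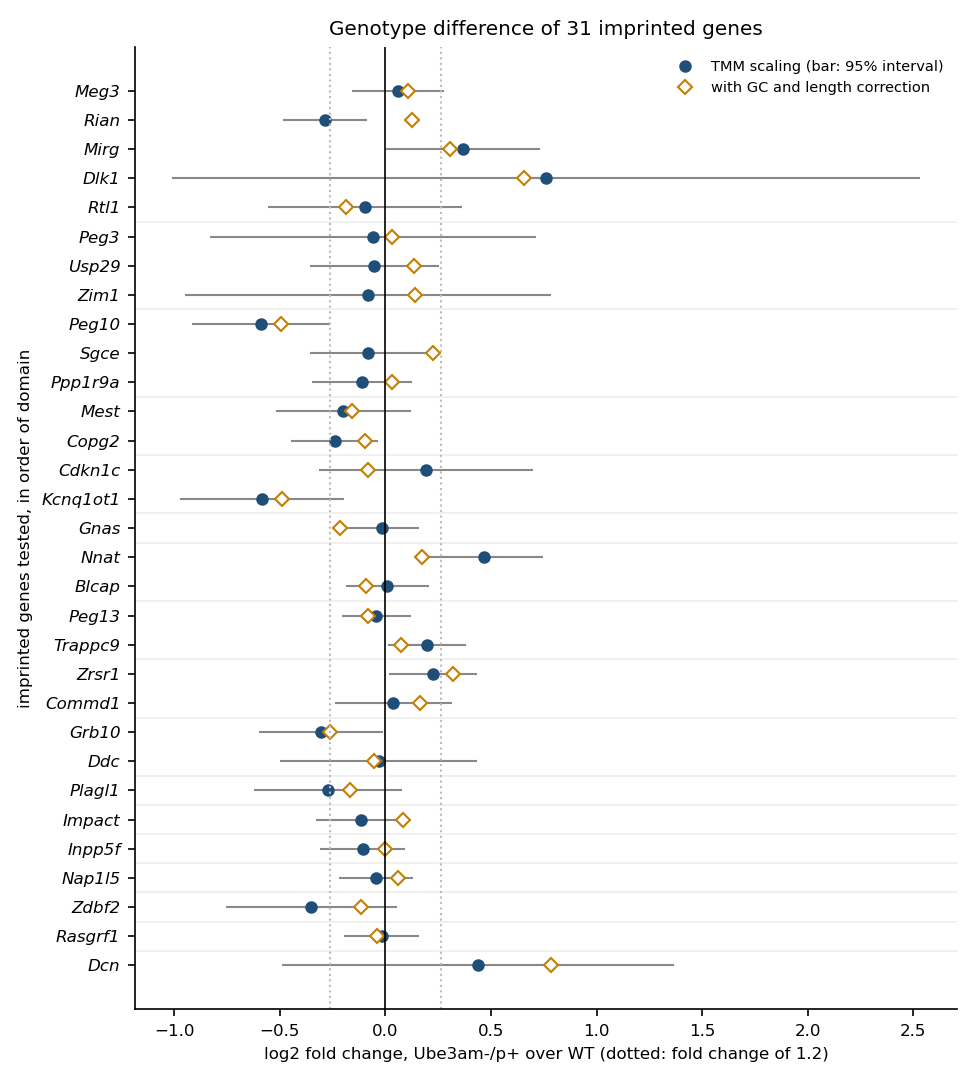
Log2 fold change of each of the 31 tested imprinted genes, Ube3am-/p+ over WT, grouped by domain along the vertical axis. Filled circles with bars are the edgeR estimates with 95% intervals (3 mice against 3), open diamonds the estimates after correction for GC content and transcript length, and dotted lines a fold change of 1.2. For 22 of the 31 genes the interval includes 0, and the widest interval is that of Dlk1, from -1.01 to 2.53.

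Levels were compared per length, as CPM per kb of annotated exon. Meg3 stood highest at 211 CPM per kb over the 6 mice, followed by Gnas at 111, Nap1l5 at 95.1, Nnat at 76.6, Rasgrf1 at 63.2 and Peg13 at 55.9. Above 10 CPM per kb there were 15 of the 39 genes, 13 lay between 1 and 10, and 11 were lower. In raw counts Meg3 held 47.2% of all the reads on these genes, and with Gnas, Rasgrf1 and Rian 77.4%. The gene group as a whole took 0.805% to 0.828% of the gene counts in WT mice and 0.74% to 0.876% in Ube3am-/p+ mice, ranges that overlap.

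**Figure D2:**
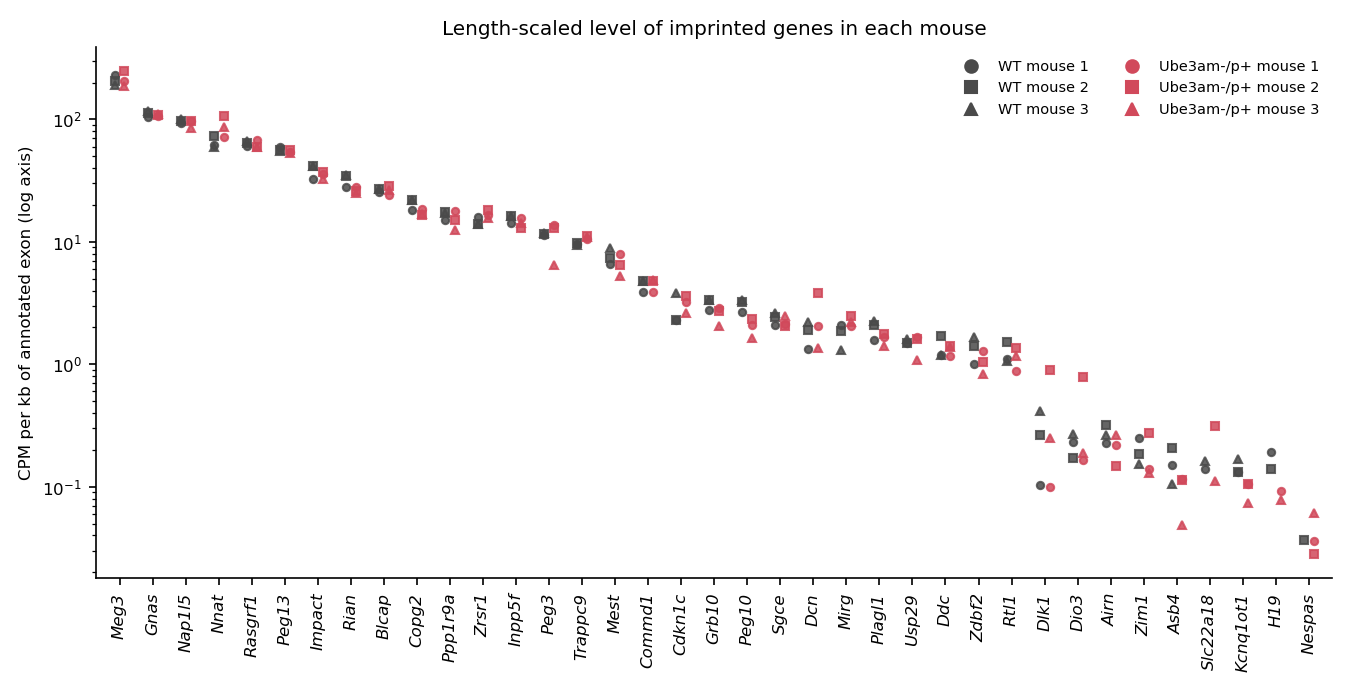
CPM per kb of annotated exon (log axis) in each of the 6 mice for the 37 imprinted genes with at least 1 read, in order of their mean. Grey symbols are WT and red symbols Ube3am-/p+ mice, the shape gives the mouse number, and values of 0 are not drawn. Meg3 at 211 and Gnas at 111 lead the order, and among the low genes Dlk1 and Dio3 stand out by their high value in Ube3am-/p+ mouse 2.

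The Dlk1-Meg3 domain on chromosome 12 holds 3 maternally expressed noncoding transcripts in a row and 3 protein genes expressed from the paternal copy. Meg3 (109541001 to 109571726 in GRCm38), a nuclear long noncoding RNA abundant in neurons, had 4134, 3726 and 3426 CPM in WT mice 1, 2 and 3 and 3753, 4484 and 3385 CPM in Ube3am-/p+ mice 1, 2 and 3. The genotypes overlapped, and the log2 fold change was 0.06 with a 95% interval from -0.16 to 0.28 (adjusted p = 0.761, edgeR). Rian (109603940 to 109661716), a host of small nucleolar RNAs, had 515, 632 and 637 CPM in WT mice and 513, 473 and 459 CPM in Ube3am-/p+ mice. Every Ube3am-/p+ mouse was below every WT mouse, but the mice numbered 1 were nearly level, and the means were 595 ± 69.4 and 482 ± 27.8 CPM (SD, n = 3). The log2 fold change of Rian was -0.29 ± 0.09 (SE, adjusted p = 0.0866, edgeR). The longest Rian transcript has a GC content of 35.8%, and after the correction for GC content and length the estimate turned to 0.13 (adjusted p = 0.454, edgeR). Mirg (109729764 to 109749460), the host of the microRNAs labelled Mirg above, had 15.2, 13.7 and 9.46 CPM in WT mice and 14.9, 17.9 and 16.3 CPM in Ube3am-/p+ mice. WT mouse 3 was low, and WT mouse 1 lay above Ube3am-/p+ mouse 1. The log2 fold change of Mirg was 0.37 (95% interval 0.0032 to 0.73, adjusted p = 0.199, edgeR), and 0.31 after the correction. Reads that fall on the annotated microRNAs inside Mirg may have been set aside as ambiguous by the counting.

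Since ratios of counts within a library need no scaling between libraries, neighbouring genes were also compared in this way. Reads on Mirg per read on Meg3 numbered 0.0037, 0.0037 and 0.0028 in WT mice and 0.0040, 0.0040 and 0.0048 in Ube3am-/p+ mice, without overlap (two-sided exact permutation test, p = 0.1, the smallest that 3 mice against 3 allow). Reads on Rian per read on Meg3 numbered 0.124, 0.170 and 0.186 in WT mice and 0.137, 0.106 and 0.136 in Ube3am-/p+ mice. Here WT mouse 1 lay among the Ube3am-/p+ mice (two-sided exact permutation test, p = 0.3). Such ratios still carry the relation to GC content where the partners differ in it. After the correction the log2 fold changes were 0.11 for Meg3, 0.13 for Rian and 0.31 for Mirg, so that the difference between Rian and Meg3 went from -0.34 to 0.02.

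Of the protein genes of this domain, Dlk1, which encodes a membrane protein related to Notch ligands, was sparse, with 5, 13 and 17 counts in WT and 5, 57 and 15 counts in Ube3am-/p+ mice. Its 5.04 CPM in Ube3am-/p+ mouse 2 was 2.88 times the median of the other 5 mice (on CPM plus 0.5), and only 0.125% of all tested genes stood as high above the median in that mouse. Dio3, the deiodinase that inactivates thyroid hormone, had 4, 3 and 4 counts in WT and 3, 18 and 4 counts in Ube3am-/p+ mice, again with the most in Ube3am-/p+ mouse 2, and did not pass the filter. Dcn, which encodes the matrix proteoglycan decorin and lies on another chromosome, was also highest in this mouse, at 22.4 CPM against 7.77 to 12.9 CPM in the others. Dcn is also one of 10 markers of meninges and fibroblasts. The other markers summed to 159 CPM in this mouse, of which Igf2 made up 88.2 CPM, and to 162 and 89.5 CPM in Ube3am-/p+ mice 1 and 3, against 83.3 to 141 CPM in WT mice. Without Dcn the sum was thus not highest in mouse 2, but Igf2 weighed heavily in it, with 109 CPM in Ube3am-/p+ mouse 1. Taken singly, Col1a1, Col1a2, Col3a1, Lum, Slc6a13 and Slc22a6 were each highest in mouse 2, whereas Igf2, Ogn and Foxc2 were not. Col1a1 had 19.3 CPM in this mouse against 8.53 to 15.3 CPM in the others, and Lum 6.45 against 2.38 to 5.21 CPM. All 10 of these markers were detected, and of the 9 tested 1 was called, Col1a1, which encodes a chain of type I collagen and was higher in Ube3am-/p+ mice. The part of meninges in these values was not tested. Rtl1, a placental protein derived from a retrotransposon, had 6.72 to 9.68 CPM in WT and 5.64 to 8.57 CPM in Ube3am-/p+ mice, with a log2 fold change of -0.10 (95% interval -0.55 to 0.36).

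**Figure D3:**
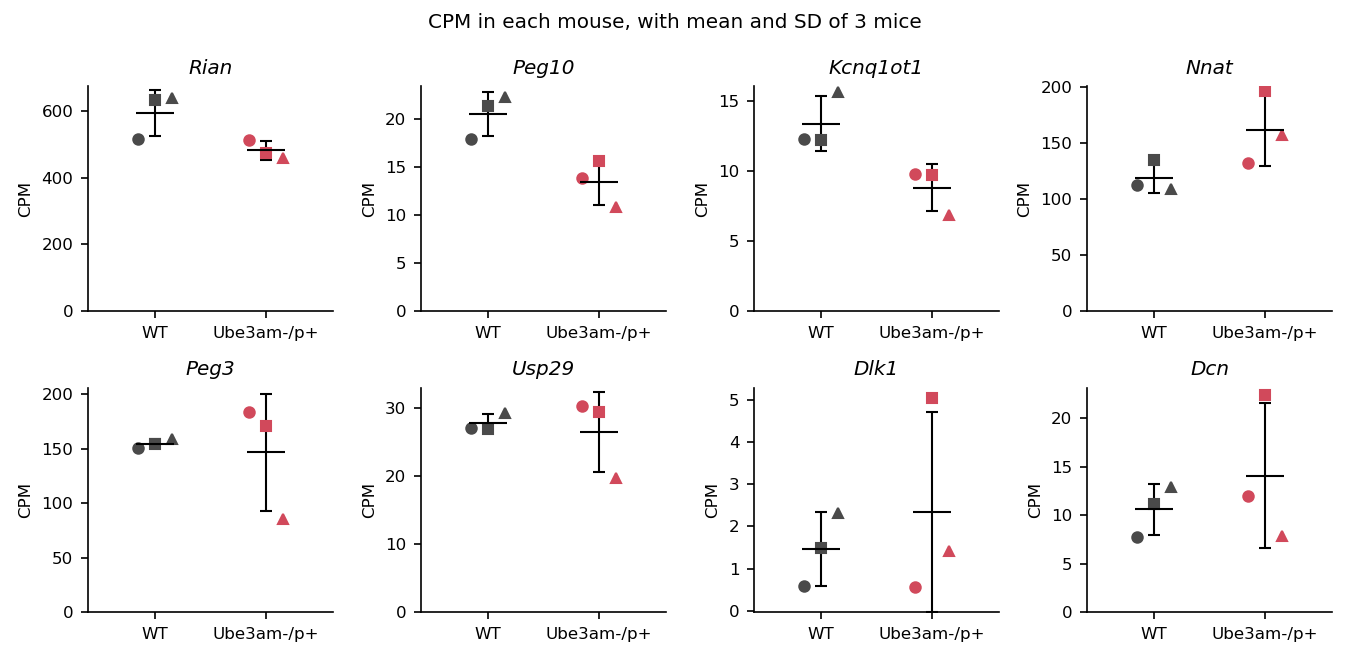
CPM of 8 imprinted genes in each mouse, with WT in grey and Ube3am-/p+ in red, the symbol shape giving the mouse number, and the mean with its SD (n = 3) as black bars; each panel has its own linear axis. Rian, Peg10 and Kcnq1ot1 do not overlap between the genotypes, Peg3 is at 85.5 CPM in Ube3am-/p+ mouse 3 alone, and Dlk1 and Dcn are highest in Ube3am-/p+ mouse 2.

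Peg10 and Sgce on chromosome 6 are expressed from the paternal copy and start 99 bases apart on opposite strands. Peg10 (4747306 to 4760517), a gene of retrotransposon origin that is needed for the placenta, had 17.9, 21.3 and 22.3 CPM in WT and 13.9, 15.6 and 10.8 CPM in Ube3am-/p+ mice. Every Ube3am-/p+ mouse was below every WT mouse, with means of 20.5 ± 2.33 and 13.4 ± 2.43 CPM (SD, n = 3). The log2 fold change was -0.59 ± 0.16 (SE, 95% interval -0.92 to -0.26, adjusted p = 0.0539, edgeR), and -0.49 after the correction for GC content and length (adjusted p = 0.0758, edgeR). Sgce (4674350 to 4747207), which encodes epsilon-sarcoglycan, had 22.1, 25.8 and 28.0 CPM in WT and 22.4, 21.8 and 26.3 CPM in Ube3am-/p+ mice, and the genotypes overlapped. Its log2 fold change was -0.08 (95% interval -0.36 to 0.19) and turned to 0.22 after the correction. Within a library, there were 0.809, 0.826 and 0.799 reads on Peg10 per read on Sgce in WT mice and 0.618, 0.717 and 0.412 in Ube3am-/p+ mice. The ratio was lower in 3 of 3 Ube3am-/p+ mice than in any WT mouse (two-sided exact permutation test, p = 0.1). Further along chromosome 6, Ppp1r9a, which encodes the actin-binding synaptic protein neurabin, had 219, 256 and 251 CPM in WT and 262, 220 and 182 CPM in Ube3am-/p+ mice. These values overlapped, with a log2 fold change of -0.11 (95% interval -0.35 to 0.13). Asb4, a substrate adaptor of ubiquitin ligases, had 26 counts in the 6 libraries, and Calcr, the calcitonin receptor, had 0.

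Kcnq1ot1 (chromosome 7, 143203458 to 143296549), an unspliced antisense RNA whose transcription from the paternal copy silences its neighbours, had 12.3, 12.2 and 15.6 CPM in WT mice and 9.81, 9.72 and 6.84 CPM in Ube3am-/p+ mice. The genotypes did not overlap, and the means were 13.4 ± 1.96 and 8.79 ± 1.69 CPM (SD, n = 3). The log2 fold change was -0.58 ± 0.18 (SE, 95% interval -0.97 to -0.20, adjusted p = 0.0756, edgeR), and -0.49 after the correction (adjusted p = 0.136, edgeR). Kcnq1ot1 lies within Kcnq1 on the opposite strand, and Kcnq1 had 37 counts in the 6 libraries. Cdkn1c, a cell cycle inhibitor that Kcnq1ot1 silences on the paternal copy, had 4.71, 4.73 and 7.82 CPM in WT and 6.54, 7.42 and 5.32 CPM in Ube3am-/p+ mice. These values overlapped, and the log2 fold change of 0.19 had an interval from -0.31 to 0.70. It turned to -0.08 after the correction. Reads on Kcnq1ot1 per read on Cdkn1c numbered 2.60, 2.59 and 2.00 in WT mice and 1.5, 1.31 and 1.29 in Ube3am-/p+ mice, without overlap (two-sided exact permutation test, p = 0.1). Of the other genes of the distal chromosome 7 domains, H19, a fetal noncoding RNA, had 11 counts, the transporter gene Slc22a18 had 12, and Phlda2, which limits placental growth, had 0 in the 6 libraries. A count of 0 allows up to 0.265 to 0.411 CPM in a library (3 counts, counting error only).

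Peg3 and Usp29 on proximal chromosome 7 are expressed from the paternal copy and start at the shared promoter window printed above. Peg3 (6703892 to 6730431), a zinc finger protein linked to maternal behaviour and growth, had 150, 155 and 159 CPM in WT mice, a narrow range, and 184, 171 and 85.5 CPM in Ube3am-/p+ mice. Mice 1 and 2 of the mutant genotype lay above all WT mice and mouse 3 far below. Peg3 in this mouse was 0.54 times the median of the other 5 mice, and 1.31% of all tested genes were as low in it. Usp29 (6730578 to 6967219), named after the ubiquitin-specific proteases, was likewise lowest in this mouse, with 27.1, 26.9 and 29.2 CPM in WT and 30.3, 29.3 and 19.7 CPM in Ube3am-/p+ mice. In the same mouse Usp29 was 0.68 times the median of the others, and 5.07% of tested genes were as low. A low value in this mouse was not particular to these genes. Peg10, Kcnq1ot1, Grb10, Mest, Ppp1r9a and Nap1l5 also deviated most in it, each downward, with Kcnq1ot1 at 0.58 and Peg10 at 0.62 times the median of the other 5 mice. The log2 fold changes between the genotypes were -0.06 (95% interval -0.83 to 0.71) for Peg3 and -0.05 (95% interval -0.36 to 0.26) for Usp29. Zim1, the maternally expressed neighbour, had 85 counts in the 6 libraries, from 1.05 to 2.21 CPM, with no separation. Peg3 and Usp29, and above Dlk1, Dio3 and Dcn, were singled out for 1 mouse after their values were seen.

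Nnat (chromosome 2, 157560078 to 157562522), which encodes neuronatin, a small protein of the endoplasmic reticulum membrane that is abundant in developing neurons, lies in an intron of Blcap on the opposite strand. It had 113, 134 and 109 CPM in WT and 132, 196 and 157 CPM in Ube3am-/p+ mice. Only WT mouse 2 and Ube3am-/p+ mouse 1 overlapped, and the means were 119 ± 13.7 and 162 ± 32.4 CPM (SD, n = 3). The log2 fold change was 0.47 ± 0.13 (SE, adjusted p = 0.0638, edgeR). The longest Nnat transcript has a GC content of 58.6%, and the correction brought the estimate to 0.17 (adjusted p = 0.618, edgeR). Blcap, an apoptosis-related membrane protein gene, had 78.2, 82.2 and 82.1 CPM in WT and 73.4, 87.1 and 80.3 CPM in Ube3am-/p+ mice, with a log2 fold change of 0.01 (95% interval -0.19 to 0.21). Reads on Nnat per read on Blcap numbered 1.44, 1.63 and 1.33 in WT mice and 1.80, 2.25 and 1.96 in Ube3am-/p+ mice, without overlap (two-sided exact permutation test, p = 0.1).

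Peg13, a paternally expressed noncoding RNA, lies in an intron of Trappc9 on chromosome 15. Peg13 (72805600 to 72810324) had 279, 268 and 261 CPM in WT and 258, 265 and 252 CPM in Ube3am-/p+ mice, a narrow range in both genotypes. Its log2 fold change was -0.04 (95% interval -0.21 to 0.12). Trappc9 (72589620 to 73061204), a subunit of the TRAPP vesicle-tethering complex expressed with a maternal bias in brain, had 75.7, 77.6 and 74.9 CPM in WT and 83.3, 88.1 and 86.9 CPM in Ube3am-/p+ mice. Every Ube3am-/p+ mouse was above every WT mouse, and the log2 fold change was 0.20 ± 0.09 (SE, adjusted p = 0.172, edgeR). It was 0.07 after the correction (adjusted p = 0.729, edgeR). Reads on Trappc9 per read on Peg13 numbered 0.271, 0.290 and 0.286 in WT and 0.323, 0.332 and 0.345 in Ube3am-/p+ mice, again without overlap (two-sided exact permutation test, p = 0.1).

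**Figure D4:**
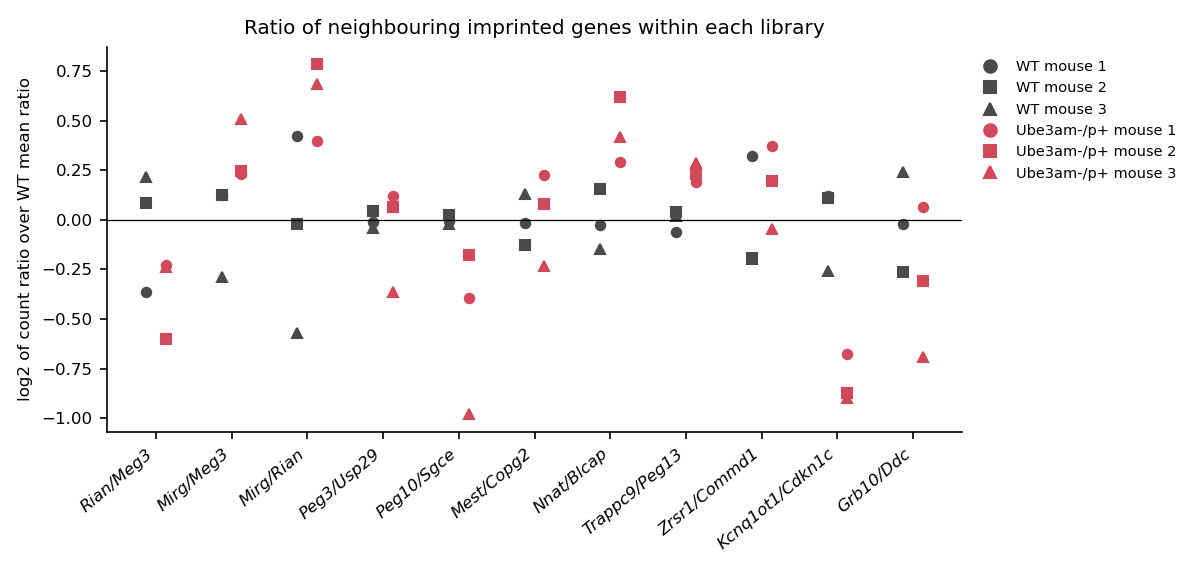
Ratio of the raw counts of neighbouring imprinted genes within each library, as log2 of the ratio over the WT mean ratio, for 11 pairs. Grey symbols are WT and red symbols Ube3am-/p+ mice, with the shape giving the mouse number. The genotypes do not overlap in 5 pairs, Mirg over Meg3, Peg10 over Sgce, Nnat over Blcap, Trappc9 over Peg13 and Kcnq1ot1 over Cdkn1c.

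Of the 11 ratios computed, 5 (45.5%) did not overlap between the genotypes, against 19.9% of 13409 ratios of adjacent genes across the genome. The pairs were chosen with values of these genes known, and pairs with a common gene are not independent. Once GC content and length were corrected for, the difference in log2 fold change between the partners went from -0.78 to -0.41 for Kcnq1ot1 and Cdkn1c, from 0.46 to 0.27 for Nnat and Blcap, from 0.31 to 0.20 for Mirg and Meg3, from 0.24 to 0.15 for Trappc9 and Peg13, and from -0.51 to -0.72 for Peg10 and Sgce.

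Zrsr1 on chromosome 11, a retrotransposed copy of a splicing factor gene that lies within Commd1, had 72.2, 62.5 and 62.2 CPM in WT and 75.1, 81.8 and 70.5 CPM in Ube3am-/p+ mice. WT mouse 1 overlapped the mutant range. The log2 fold change of Zrsr1 was 0.23 ± 0.10 (SE, adjusted p = 0.171, edgeR), and 0.32 after the correction (adjusted p = 0.0758, edgeR). Commd1, which acts in copper handling and endosomal sorting, had 23.0, 28.5 and 28.4 CPM in WT and 23.1, 28.5 and 29.0 CPM in Ube3am-/p+ mice, nearly the same in mice of the same number. Exons of Zrsr1 and Commd1 overlap on opposite strands over 412 bp, and those of Mest and Copg2 over 912 bp. Whether the counting used strands is not given in the sources used here, so the reads in these stretches are uncertain.

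Copg2 on chromosome 6, a subunit of the coat of Golgi vesicles, had 92.5, 113 and 113 CPM in WT and 95.1, 85.2 and 85.9 CPM in Ube3am-/p+ mice. WT mouse 1 lay below Ube3am-/p+ mouse 1, and the log2 fold change was -0.24 ± 0.10 (SE, adjusted p = 0.146, edgeR). It was -0.10 after the correction. Mest, a paternally expressed gene of the hydrolase fold that overlaps the end of Copg2, had 25.8, 29.0 and 35.0 CPM in WT and 31.3, 25.4 and 20.6 CPM in Ube3am-/p+ mice. These values overlapped, with a log2 fold change of -0.20 (95% interval -0.52 to 0.12). Grb10 on chromosome 11, an adaptor that dampens insulin and IGF receptor signalling and that neurons express from the paternal copy, had 25.3, 30.7 and 30.6 CPM in WT and 26.3, 24.6 and 18.5 CPM in Ube3am-/p+ mice. WT mouse 1 lay between the mutant mice, and the log2 fold change was -0.30 ± 0.14 (SE, adjusted p = 0.189, edgeR) and -0.26 after the correction. Ddc, the adjacent gene of the decarboxylase that makes dopamine and serotonin, had 5.30 to 7.61 CPM in WT and 5.19 to 6.28 CPM in Ube3am-/p+ mice.

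Gnas on chromosome 2, which encodes the stimulatory G protein alpha subunit, had 1165, 1271 and 1322 CPM in WT and 1204, 1216 and 1248 CPM in Ube3am-/p+ mice. The mutant range lay inside the WT range, with a log2 fold change of -0.02 (95% interval -0.19 to 0.16), and -0.21 after the correction (adjusted p = 0.201, edgeR). The antisense RNA Nespas had 5 counts in the 6 libraries, and its exons overlap those of Gnas over 988 bp. Rasgrf1, a calcium-dependent activator of Ras in neurons, had 673, 716 and 737 CPM in WT and 748, 660 and 664 CPM in Ube3am-/p+ mice, with a log2 fold change of -0.02 (95% interval -0.20 to 0.16). Nap1l5, a retrogene related to nucleosome assembly proteins, had 173, 178 and 186 CPM in WT and 180, 178 and 157 CPM in Ube3am-/p+ mice, with a log2 fold change of -0.04 (95% interval -0.22 to 0.13). For Meg3, Gnas, Rasgrf1, Nap1l5, Peg13 and Blcap the 95% intervals lay between -0.22 and 0.28.

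Impact, which restrains the stress kinase GCN2 in neurons, had 167, 212 and 213 CPM in WT and 183, 190 and 166 CPM in Ube3am-/p+ mice, with a log2 fold change of -0.12 (95% interval -0.33 to 0.09) that turned to 0.08 after the correction. Inpp5f, a phosphoinositide phosphatase with an imprinted variant in brain, had 118, 136 and 136 CPM in WT and 130, 108 and 120 CPM in Ube3am-/p+ mice. Plagl1, a zinc finger factor that regulates other imprinted genes, had 12.3, 16.5 and 17.6 CPM in WT and 13, 13.9 and 10.9 CPM in Ube3am-/p+ mice. Zdbf2, which acts in hypothalamic growth control, had 12.7, 17.8 and 21 CPM in WT and 16.2, 13.2 and 10.5 CPM in Ube3am-/p+ mice. In these 4 genes the genotypes overlapped, and WT mouse 1 was the lowest of the WT mice. Airn, the antisense RNA of the Igf2r domain, had 47 counts in the 6 libraries. The 8 genes below the filter were thus Airn, Asb4, Calcr, Dio3, H19, Nespas, Phlda2 and Slc22a18.

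Across the 31 tested genes, the log2 fold change was related to transcript GC content (taken from the longest transcript) with a Spearman's rho of 0.50, and across 14201 tested genes with a rho of 0.62. These are descriptions across genes measured in the same 6 libraries, and genes are not independent replicates. The median GC content was 46.8% for the imprinted genes and 49.9% for all tested genes. After the correction 0 of the 31 genes were called (edgeR), against 0.648% of all genes, and 5 had an unadjusted p below 0.05 , Gnas, Grb10, Kcnq1ot1, Peg10 and Zrsr1, against 14.2% of all genes. Under the correction 10 of the 31 genes had an estimate of the opposite sign, and Rian was the single one of these with an unadjusted p below 0.05 before it. The differences of Peg10 and Kcnq1ot1 kept 83.6% and 83.9% of their size on the log2 scale, while that of Nnat kept 37.3%. The Kcnq1ot1 transcript is 93092 bases long, whereas Meg3, the next longest of the 31 genes, has 14548 bases. Kcnq1ot1 thus stood far outside the lengths of the others, and how well the correction held at such a length was not tested.

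**Figure D5:**
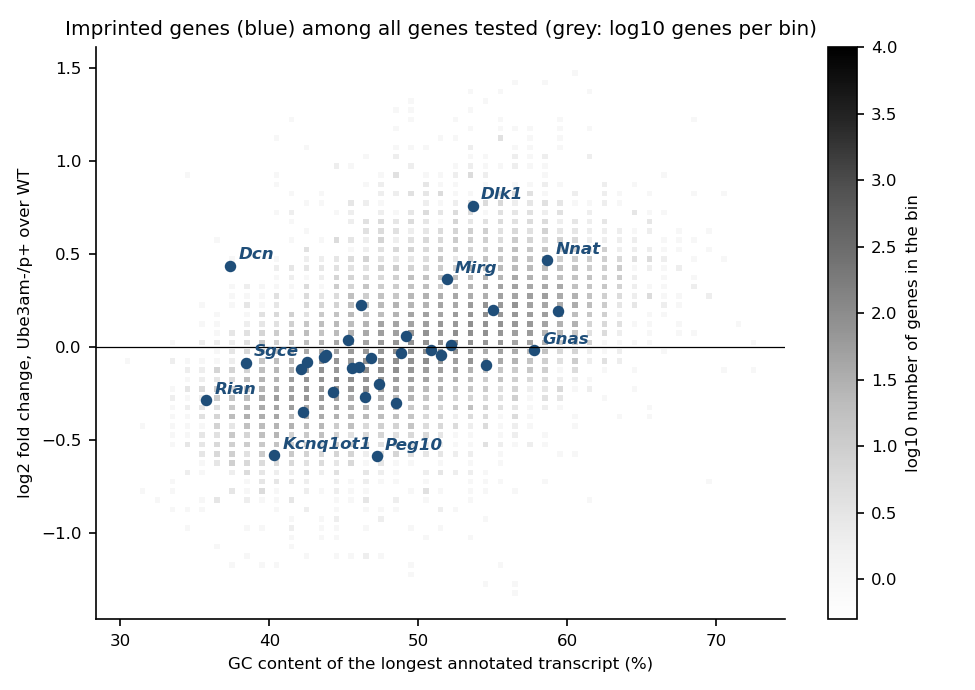
Log2 fold change between the genotypes against transcript GC content in percent, for the 31 tested imprinted genes (blue, some labelled) over the density of all tested genes within 1.5 on the log2 scale (grey). Genes with low GC content tend to have negative and genes with high GC content positive estimates, with rho = 0.62 across all genes and 0.50 across the imprinted genes, and Dcn lies above and Peg10 below most genes of like GC content.

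The mice numbered 1 lay between the others in the relation to GC content, and without both of them this relation and the genotype cannot be told apart by the uncorrected counts. In that setting 11 of the 31 genes were called (35.5%), against 28.3% of all tested genes. The 8 with lower expression in Ube3am-/p+ mice were Copg2, Grb10, Kcnq1ot1, Mest, Peg10, Ppp1r9a, Rian and Zdbf2, and the 3 with higher expression were Mirg, Nnat and Zrsr1. With the GC and length correction as well, a setting added after seeing the data, 5 were called (16.1%), against 9.17% of all genes, with Gnas, Grb10 and Peg10 lower and Meg3 and Zrsr1 higher in Ube3am-/p+ mice. With 1 mouse left out, from 0 to 5 of the imprinted genes were called, with 5 (16.1%, against 17.6% of all genes) without WT mouse 1 and 3 (9.68%, against 12.5%) without Ube3am-/p+ mouse 1.

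Other imprinted genes and neighbours in the same domains were taken from a separate list of 46 symbols, of which 45 were in the counts and 33 were tested. Of these 1 (3.03%, against 2.01% of all genes) was differentially expressed, Tssc4, a splicing-related gene in the Kcnq1ot1 domain, with 18.8, 14.2 and 11.8 CPM in WT and 20.1, 26.7 and 26.1 CPM in Ube3am-/p+ mice. Its log2 fold change was 0.72 ± 0.17 (SE, adjusted p = 0.0427, edgeR), and 0.44 after the correction (adjusted p = 0.0999, edgeR). At an unadjusted p below 0.05, 4 genes of this list had higher and 4 lower means in Ube3am-/p+ mice, together 24.2% of the list against 24.6% of all genes. The median of the 33 estimates was 0.06 on the log2 scale. The lower ones included Tac1, the precursor of substance P, at 7.03 ± 1.01 and 3.77 ± 0.931 CPM (SD, n = 3), and Htr2a, a serotonin receptor, at 7.19 ± 0.0664 and 4.31 ± 0.315 CPM (SD, n = 3). Their log2 fold changes were -0.87 and -0.72, with adjusted p of 0.0592 and 0.0632 (edgeR), and neither overlapped between the genotypes. After the correction the estimates were -0.73 for Tac1 and -0.48 for Htr2a (adjusted p = 0.132 and 0.298, edgeR). In 6 of the 33 genes of this list the genotypes did not overlap, against 25% of all tested genes.

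Among 29 regulators of imprinting, 27 were tested and 0 were called (edgeR), where 2.01% of all genes were. An unadjusted p below 0.05 was found for 8 (29.6%, against 24.6% of all genes), 6 of them with the lower mean in Ube3am-/p+ mice (22.2%, against 12.4%) and 2 with the higher mean (7.41%, against 12.2%). These shares are not a test of the list. Zfp57, the zinc finger protein that keeps methylation at imprinted control regions, had 13.3, 13.7 and 11.0 CPM in WT and 9.02, 7.95 and 8.08 CPM in Ube3am-/p+ mice, without overlap. Its log2 fold change was -0.59 ± 0.17 (SE, adjusted p = 0.0632, edgeR), and -0.51 after the correction (adjusted p = 0.135, edgeR). Dnmt1, the maintenance DNA methyltransferase, had 55.5 ± 1.14 CPM in WT and 66.7 ± 1.25 CPM in Ube3am-/p+ mice (SD, n = 3), with 0.28 as the log2 fold change (adjusted p = 0.0756, edgeR), and 0.21 after the correction (adjusted p = 0.228, edgeR). Smchd1, a chromatin protein that silences imprinted clusters, differed by -0.37 on the log2 scale (adjusted p = 0.0807, edgeR), and by -0.15 after the correction. Ehmt2, a histone H3 lysine methyltransferase, differed by 0.30 on the log2 scale (adjusted p = 0.0717, edgeR), and by 0.04 after the correction. The median of the 27 regulators was -0.11.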

How the data were processed

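RNA-seq data of 6 hippocampal libraries were used. Per the labels' processing notes, the authors used STAR 2.7.4a, HTSeq and the build mm10; the annotation and the strand setting are not given in the sources used here. The deposited values are raw counts per gene symbol, 1 table per mouse, neither normalized nor pooled. Lines for reads on no gene (54.1% to 55.0% of reads listed), ambiguous and multiply aligned reads were left out. CPM are scaled to the total gene counts of a library. Genes were kept by filterByExpr and tested in R 4.3.3 by edgeR 4.0.16 (TMM, factors 0.985 to 1.01, quasi-likelihood F test, two-sided, fitted on genotype alone) with adjustment over 14445 genes. DESeq2 1.42.0, other scalings and filters, a replicate block, a GC and length correction and left-out mice were alternatives. The correction fitted, in each library, 5-df splines on the GC content and on the log length of each gene's longest transcript (GENCODE M21, GRCm38), known for 98.3% of tested genes. Positions are from GENCODE M21, and promoters and microRNAs from RefSeq. On simulated counts with 200 genes changed 2-fold, edgeR recovered 90% with 10 false calls among 14292 genes. The simulated libraries did not differ in their relation to GC content. The estimates of the 31 imprinted genes were also smaller than 2-fold, at -0.59 to 0.76 on the log2 scale. The simulated shares therefore do not describe the test on the real libraries.

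The genes and lists were chosen with earlier results of these data known. Values of every mouse are given for genes with an unadjusted p below 0.05 or without overlap, the highest gene of each domain per length, and genes that overlap or adjoin these. At most 4 genes of each further list are named, by size of p. Replicates are single mice, and nothing says that same-numbered mice were paired. The edgeR p-values set the genotype difference against the spread among mice of the same genotype, and the exact p-values come from relabelling the 6 mice. Both rest on these 6 libraries alone. Every pair of libraries differed by more than sampling noise (chi-square per degree of freedom at least 3.91). The lowest value was that between WT mouse 1 and Ube3am-/p+ mouse 1, below those of all pairs of the same genotype.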

Additional observations from a re-analysis of the deposited data

How the results depend on the processing

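Of 14445 tested genes 290 were called, against 934 with DESeq2, 1176 with no filter, 92 with the GC and length correction, 13 with this correction and the replicate block, 0 with the replicate block alone (2422 at an unadjusted p below 0.05), 4138 without both mice numbered 1, 1318 without both and with the correction (a setting added after seeing the data), and 2832 at an unadjusted p below 0.05 with a fold change above 1.2, and 0 to 2582 with 1 mouse left out. It was 0 without WT mouse 2, WT mouse 3 or Ube3am-/p+ mouse 2 and 2 without Ube3am-/p+ mouse 3 (2075, 2159, 2128 and 2429 at an unadjusted p below 0.05), so that Ube3a and Tssc4 were not called without WT mouse 2, WT mouse 3 or Ube3am-/p+ mouse 2. It was 2582 without WT mouse 1 and 1816 without Ube3am-/p+ mouse 1.

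The number of imprinted genes called, 0 of 31 with edgeR (9 at an unadjusted p below 0.05), was 3 with DESeq2, 3 with no filter (Kcnq1ot1, Nnat and Peg10), 1 with DESeq2 size factors (Peg10), 11 without both mice numbered 1, 5 without both and with the correction, and 0 to 5 with 1 mouse left out. At an unadjusted p below 0.05 with the same fold change it was 6 of 31, where 2832 of all 14445 tested genes met that rule. It was 0 under the other settings run. The number with an unadjusted p below 0.05 was 4 with the replicate block (12.9%, against 16.8% of all genes), 5 with the correction (16.1%, against 14.2%) and 15 without both mice numbered 1 (48.4%, against 41.4%), and 3 to 12 with 1 mouse left out, the fewest without WT mouse 2 (9.68%, against 14.2%). The most, 12, were found without WT mouse 1 (38.7%, against 32.5%) and also without Ube3am-/p+ mouse 1 (38.7%, against 30.6%). The median log2 fold change of the imprinted genes lay between -0.11 (without both mice numbered 1) and 0.03 (with the correction) over the settings run, so that its sign changed under the correction, and between -0.07 and -0.03 with 1 mouse left out. Of the values for Ube3a, the correction gave -0.20 (adjusted p = 0.240, edgeR). For Peg10 the adjusted p (edgeR) lay between 0.0109 and 0.263 and for Kcnq1ot1 between 0.0369 and 0.299 with 1 mouse left out. Same-numbered mice deviated from their genotype means with correlations of -0.285, -0.177 and -0.310. These cannot decide whether such mice were handled together, since mice lying between the genotypes deviate in opposite directions. The sources describe no pairing, so the numbers were not taken as pairs and the replicate block is given only here. The 8 genes under the filter had 0 to 47 counts in all and were not tested. The causes of these movements were not tested.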
